A study of Homo sapiens with 19 samples.

Results

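The genes described are those of the human heat shock and chaperone families, chosen by symbol: the HSPA (HSP70 and HSP110), HSPB (small heat shock protein), HSPD1, HSPE1, HSPH1 and HSP90 genes, the J protein genes DNAJA, DNAJB and DNAJC, and TCP1 with the CCT genes of the chaperonin. The choice was made with earlier results of these data known. The symbols picked 81 of the 34825 gene rows of each of 2 expression tables. RNA was sequenced from HepG2 cells, a human liver cancer line, 72 h after transfection of 50 nM siRNA with the lipid reagent RNAiMAX. In the first experiment, 3 libraries each were made from cells given a nontargeting siRNA (NTG, AM4611) or one of the INO80 siRNAs, s224308 (siINO80#1) and 29255 (siINO80#2), which lower the ATPase of the INO80 chromatin remodelling complex. In the second, cells were kept in DMSO or in 1 µM EPZ-6438, an inhibitor of the methyltransferase EZH2, from 3 days before they received NTG or siMCRS1 (s20435), which lowers another subunit of that complex. It holds 2 DMSO NTG, 3 DMSO siMCRS1, 3 EPZ-6438 NTG and 2 EPZ-6438 siMCRS1 libraries. No treatment was a heat shock, siMCRS1 is a single siRNA, and both INO80 siRNAs were compared with the same NTG libraries. Nothing states that libraries of a group came from separate cultures, so p-values measure the spread between these libraries, which may be technical.

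Chaperones hold and fold unfinished or damaged proteins. HSP70 proteins bind exposed stretches of a polypeptide in a cycle that J proteins start and nucleotide exchange factors such as HSPH1 end, HSP90 acts on nearly folded clients, small heat shock proteins hold unfolded ones, and the CCT ring folds actin and tubulin. Each compartment has its own set: HSPA8, HSPA1A and the HSP90AA1 and HSP90AB1 pair work in the cytosol, HSPA5 (BiP) and HSP90B1 (GRP94) in the endoplasmic reticulum, and HSPA9, HSPD1 and HSPE1 in mitochondria. Heat shock factor HSF1 raises the cytosolic set under proteotoxic stress through heat shock elements in the promoters, and the unfolded protein response raises the set of the endoplasmic reticulum, the compartment through which a liver cell secretes its plasma proteins.

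The 250 bases before a transcription start are shown for 6 members whose promoters carry the letters bound by these regulators and whose transcripts are described below. The sequences are RefSeq windows on GRCh38.p14, printed 5′ to 3′ on the strand of the gene: HSP90AA1 at chr14:102087045-102087294 (minus strand), HSPA8 at chr11:123062137-123062386 (minus strand), HSPD1 at chr2:197499841-197500090 (minus strand), DNAJB1 at chr19:14518398-14518647 (minus strand), HSPA5 at chr9:125241344-125241593 (minus strand) and HSP90B1 at chr12:103930160-103930409 (plus strand). In the first 4, capitals mark GAANNTTC or TTCNNGAA, 2 alternating units of the heat shock element, and in the last 2 they mark the endoplasmic reticulum stress element, CCAAT and CCACG with 9 bases between them, on either strand. RefSeq gives 2 windows for HSP90AA1, 2 for HSPD1 and 3 for DNAJB1, and of these a window with the most matches is shown. Matches in their other windows are not given.
HSP90AA1: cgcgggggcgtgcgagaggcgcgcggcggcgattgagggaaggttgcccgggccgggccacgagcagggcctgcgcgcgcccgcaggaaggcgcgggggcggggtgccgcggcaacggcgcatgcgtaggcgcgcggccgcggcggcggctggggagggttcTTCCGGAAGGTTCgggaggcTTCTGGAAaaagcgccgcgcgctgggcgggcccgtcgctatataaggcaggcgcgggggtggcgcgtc
HSPA8: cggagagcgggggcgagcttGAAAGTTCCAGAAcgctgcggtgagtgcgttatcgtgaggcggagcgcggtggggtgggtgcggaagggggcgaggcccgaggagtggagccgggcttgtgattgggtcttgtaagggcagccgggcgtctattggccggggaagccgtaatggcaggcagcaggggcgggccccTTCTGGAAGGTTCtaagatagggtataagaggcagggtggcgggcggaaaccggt
HSPD1: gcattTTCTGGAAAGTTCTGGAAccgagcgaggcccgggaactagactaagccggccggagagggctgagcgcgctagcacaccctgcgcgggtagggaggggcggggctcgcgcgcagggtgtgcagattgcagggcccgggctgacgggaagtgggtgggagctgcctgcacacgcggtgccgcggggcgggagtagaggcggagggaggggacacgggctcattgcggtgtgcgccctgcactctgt
DNAJB1: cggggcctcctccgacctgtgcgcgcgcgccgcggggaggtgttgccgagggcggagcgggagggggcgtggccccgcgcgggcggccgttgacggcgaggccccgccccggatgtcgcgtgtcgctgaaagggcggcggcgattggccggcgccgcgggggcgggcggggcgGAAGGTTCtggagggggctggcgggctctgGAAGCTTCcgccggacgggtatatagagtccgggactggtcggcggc
HSPA5: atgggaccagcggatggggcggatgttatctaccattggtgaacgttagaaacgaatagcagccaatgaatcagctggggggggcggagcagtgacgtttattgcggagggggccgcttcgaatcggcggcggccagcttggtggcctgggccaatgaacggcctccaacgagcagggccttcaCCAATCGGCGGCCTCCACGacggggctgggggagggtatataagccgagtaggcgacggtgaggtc
HSP90B1: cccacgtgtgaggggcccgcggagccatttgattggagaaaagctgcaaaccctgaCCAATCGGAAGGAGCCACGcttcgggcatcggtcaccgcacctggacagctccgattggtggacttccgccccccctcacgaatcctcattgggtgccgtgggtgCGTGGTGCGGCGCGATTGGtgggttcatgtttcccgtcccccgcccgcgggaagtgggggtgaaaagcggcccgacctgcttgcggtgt

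The matches of HSP90AA1 lay 88 to 81, 83 to 76 and 68 to 61 bases before the start, and the first pair overlaps to give 3 units in a row. HSPA8 had matches 230 to 223, 225 to 218, 55 to 48 and 50 to 43 bases before the start, and HSPD1 245 to 238, 240 to 233 and 235 to 228 bases before it, each with overlapping matches that form runs of 3 or more units. DNAJB1 had separate matches at 77 to 70 and 47 to 40 bases. The stress element of HSPA5 lay 66 to 48 bases before the start, and HSP90B1 carried 1 on each strand, 194 to 176 and 89 to 71 bases before it. Promoter windows were found for 71 members. The 2-unit letters were in 23 of them (32.4%) and in 13.96% of 27305 genes with a window, a gene counting where any of its windows holds them. The 3-unit letters (GAANNTTCNNGAA or TTCNNGAANNTTC), which always contain the 2-unit ones, were in 6 members (8.45%), namely DNAJB6, HSP90AA1, HSP90AB1, HSPA6, HSPA8 and HSPD1, and in 0.557% of all genes. The stress element was in HSPA5 and HSP90B1 alone among the members (2.82%) and in 0.0916% of all genes. Such a match describes letters and is not evidence that a factor binds.

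All levels below are normalized counts, reads divided by 1 size factor per library, and a level quoted for several libraries follows the order of their letters or numbers. The 2 tables were scaled separately and no level is compared between them. Recovered read totals ran from 17093574 to 25369547 for the INO80 siRNAs with their NTG and from 26038505 to 47397233 in the EPZ-6438 experiment. INO80 itself had 1278, 1338 and 1175 in NTG, 576, 639 and 609 with siINO80#1 and 439.8, 456 and 483 with siINO80#2. INO80 changed by -1.05 (standard error 0.08, adjusted p = 5.1e-06) with siINO80#1 and by -1.46 (standard error 0.08, adjusted p = 3.6e-07) with siINO80#2 on the log2 scale. MCRS1 had 1577 and 1283 in DMSO NTG, 140.2, 83.7 and 119 in DMSO siMCRS1, 1533, 1355 and 1201 in EPZ-6438 NTG and 126 and 90.5 in EPZ-6438 siMCRS1. MCRS1 changed by -3.66 (standard error 0.23, adjusted p = 5.9e-06) in DMSO and by -3.66 (standard error 0.23, adjusted p = 3.5e-06) in EPZ-6438 with siMCRS1 on the log2 scale. Library C of siINO80#2 stood apart: its chi-square per degree of freedom against A and B was 84.3 and 121, against 18.8 between A and B and 9.45 to 71.3 between the other replicate pairs, so the number of calls with siINO80#2 is also given without it. The 7 hepatocyte markers, ALB and AFP among them, summed to 300838 to 480904 normalized counts in INO80 experiment libraries and to 432912 to 745770 in the EPZ-6438 experiment, while 7 markers of leukocytes, endothelium and fibroblasts summed to 346 to 471 and 282 to 964.

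Per kilobase of transcript, HSP90AB1 was the highest member in NTG cells, at 18498 ± 1735 normalized counts per kb (SD, n = 3), followed by HSPD1 at 16922 ± 1077, HSPA8 at 13677 ± 866 and HSPE1 at 12244 ± 1023. HSP90B1 came next at 8494 ± 778, then HSP90AA1 at 7325 ± 666 and HSPA5 at 6162 ± 386. Neighbours in this order lay within the sum of their SDs except that HSPA8 was below HSPD1, HSP90B1 below HSPE1 and HSPA5 below HSP90AA1. Constitutive cytosolic and mitochondrial chaperones led the list, and the chaperonin subunits followed from CCT3 at 4786 ± 246 per kb. In DMSO NTG cells the first 4 were in the same order, with HSP90AB1 at 45256 ± 5947 per kb (SD, n = 2), and HSP90AA1 stood before HSP90B1. The inducible HSPA1B reached 2048 ± 194 per kb in NTG. HSPA6, a strictly stress-inducible HSP70 gene, averaged 4.84 normalized counts over the INO80 experiment, and HSPA7, annotated as a transcribed pseudogene, was at 0. The members together took 1.4998 to 1.9081% of a library's normalized counts across the INO80 siRNA and matching NTG libraries, and 2.04 to 2.67% in the EPZ-6438 experiment.

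Genes were tested where their mean over the table reached 10 normalized counts, with limma on log2(value + 1), and a gene is called higher or lower at an adjusted p under 0.05. This admitted 71 of the 81 members in each experiment. Because the fold is on the log2(value + 1) scale, it understates the change of the lowest genes. With siINO80#1, 18 of 71 members were called higher and 13 lower, against 20.7% and 20.8% of the 14034 genes tested. With siINO80#2, 17 were called higher and 22 lower (26.6% and 28.4% of all genes). In the direct comparison of the 2 siRNAs, 7 members were higher and 9 lower with siINO80#2 (9.48% and 12.6%). As shares of the 71 members these are 25.4% and 18.3%, 23.9% and 31%, and 9.86% and 12.7%, so the members as a whole stood near the background with the INO80 siRNAs. Their median log2 fold changes were 0.06, 0.07 and -0.03, beside medians of 0.00, 0.00 and -0.01 over all genes. For NTG and siINO80#1 same-letter libraries shared part of their deviation from the group means, so that comparison is also given with the letter as a replicate block. The block in the fit of all 9 libraries called 21 members higher and 15 lower, beside 45.1% of all genes, and added CCT2, CCT7, DNAJA1, HSP90B1 and HSPA8. In a blocked fit of these 6 libraries alone, chosen after seeing the data, 25 were higher and 19 lower of 70 members, beside 59.1% of all genes, with CCT3, DNAJA2, DNAJB6, DNAJC2, DNAJC4, DNAJC5, DNAJC19 and HSPE1 added as well. Rescaling the libraries to equal totals changed the split of higher and lower members to 14 and 15 with siINO80#1 and 12 and 23 with siINO80#2. The calls of DNAJC1 and DNAJC6 with either siRNA, DNAJC9, DNAJC21 and DNAJC25 with siINO80#1 and DNAJA1, DNAJC10, HSPB8, DNAJB4, DNAJC4 and DNAJC24 with siINO80#2 were lost under equal totals or quantile normalization, and CCT7 and HSPA8 were called lower with siINO80#1 under both. Without siINO80#2 C, 37 members were called with siINO80#2, 34 of the 39 among them, and DNAJB1, DNAJC1, DNAJC24, HSPB1 and HSPB8 were lost. Hepatocyte genes moved too: 0 higher and 1 lower of the 7 markers were called with siINO80#1 and 0 higher and 4 lower with siINO80#2, HNF4A by -0.45 and -1.02 among them. The blocked fit of 6 libraries called 2 higher and 3 lower with siINO80#1. Their part in the chaperone values was not tested.

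With siMCRS1 in DMSO, 26 members were called higher and 8 lower (36.6% and 11.3%), against 23.1% and 24.6% of the 14312 genes tested. In EPZ-6438, 34 were higher and 7 lower (47.9% and 9.86%), against 26.8% and 26.9%. The median log2 fold change of the members was 0.23 and 0.35, beside 0.00 and 0.01 for all genes. In these bulk libraries a change in the share of cells of a kind and a change of RNA per cell cannot be told apart. These 2 comparisons share no library. The members higher in both numbered 23, which is 88.5% of those higher in DMSO and 67.6% of those higher in EPZ-6438, and 7 were lower in both (87.5% and 100%). Over all genes these shares were 90% and 77.5% of the higher calls and 89.5% and 81.9% of the lower ones. No member was called in opposite directions, and 1 of all genes was. Most members are abundant, and abundant genes were called higher more often in general. Of the 50 members averaging 1000 normalized counts or more, 22 were higher in DMSO and 32 in EPZ-6438 (44% and 64%), beside 35.1% and 42.9% of all genes at that level. Lower calls took 6% and 4% of those members and 18% and 18.3% of such genes. The split depended on the scaling. The siMCRS1 libraries had larger normalized totals (37296700 to 40178000, against 31332600 to 33672000 in NTG), and setting all totals equal moved the median of all genes by -0.23 in DMSO and -0.24 in EPZ-6438. Higher and lower members then numbered 8 and 15 in DMSO and 19 and 13 in EPZ-6438, and after quantile normalization 13 and 13 and 21 and 11. With edgeR on the recovered reads they numbered 25 and 8 and 34 and 8. Higher calls were thus 76.5% of the calls in DMSO as deposited, 34.8% under equal totals and 50.0% after quantile normalization, and every siMCRS1 value below is on the deposited scale. 7 higher and 8 lower calls in DMSO and 11 and 7 in EPZ-6438 held under both scalings. CCT8, DNAJB6, DNAJB9, DNAJC7, DNAJC15, HSPB8 and HSPH1 were higher and DNAJA3, DNAJC4, DNAJC19, DNAJC22, DNAJC28, DNAJC30 and HSPA1L lower under both scalings in both treatments. DNAJC13 held in DMSO, and HSP90AA1, HSP90B1, HSPA14 and DNAJC1 held in EPZ-6438. In EPZ-6438 DNAJC13 was not called on the deposited scale (-0.26 at an adjusted p of 0.093) but was called lower under equal totals (-0.50 at an adjusted p of 0.01) and after quantile normalization (-0.48 at an adjusted p of 0.011). DNAJC8 and HSPA4L, not called with siMCRS1 on the deposited scale, were called under both scalings in both treatments, lower under equal totals. The other siMCRS1 calls of the deposited scale, those of HSPA5, CCT2 and TCP1 among them, were lost under at least 1 of these scalings. Of the 7 markers of other cell types, 4 were tested and after siMCRS1 only COL1A1 was called (1.25 in DMSO and 2.91 in EPZ-6438), and their sum was 607 to 964 in siMCRS1 libraries against 282 to 507 in NTG. Their part in the chaperone values was not tested.

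**Figure D1:**
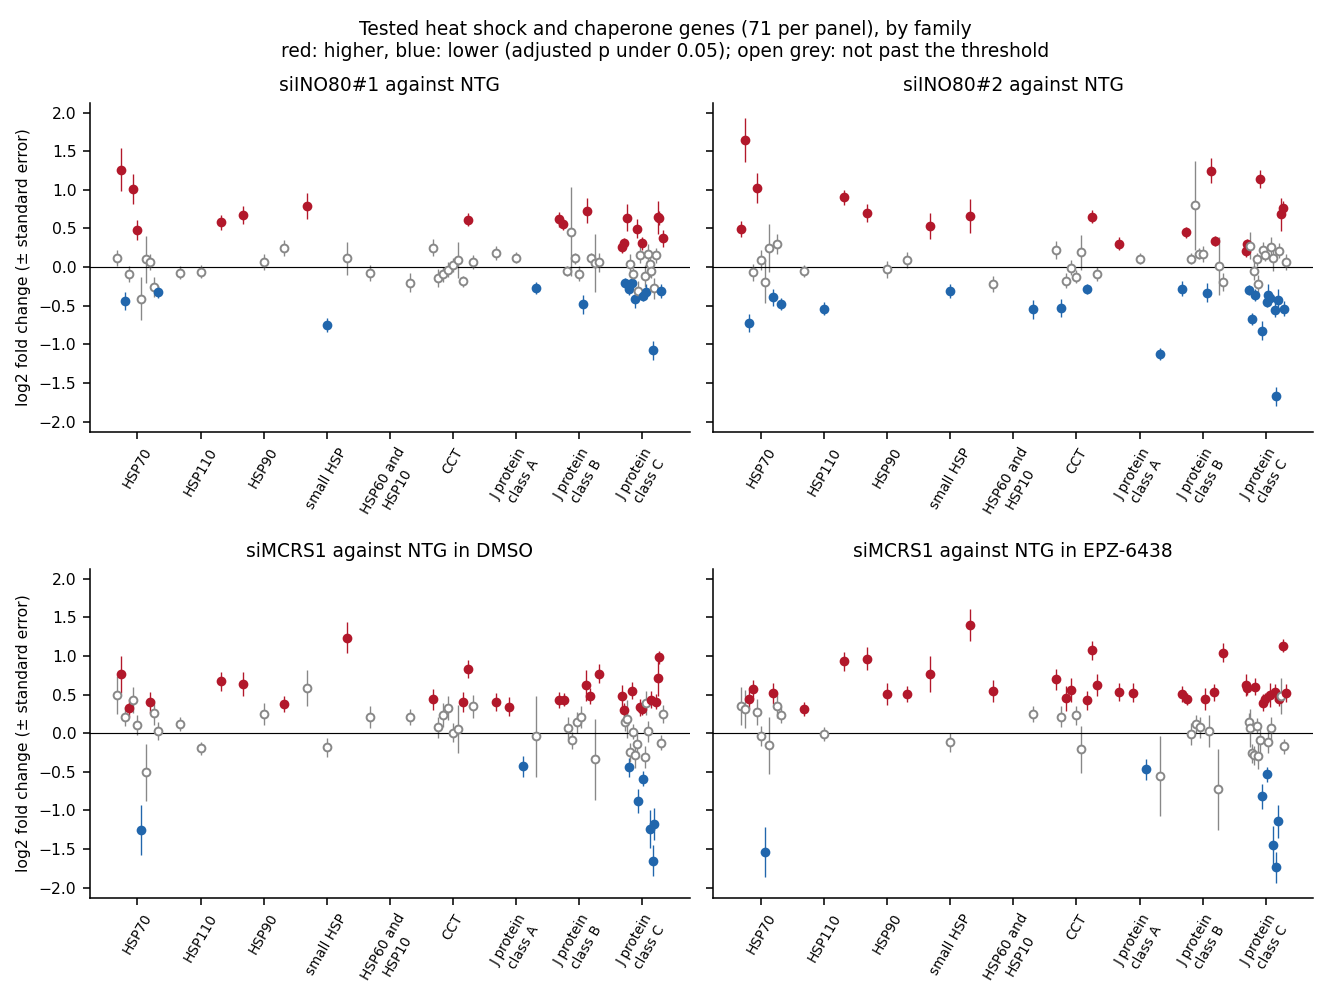
Log2 fold change of each tested member, by family, for the siRNA comparisons with NTG (scale log2(value + 1), each point 1 gene). Members spread to both sides of 0 with the INO80 siRNAs (medians 0.06 and 0.07) and lie mostly above 0 with siMCRS1 on the deposited scale (medians 0.23 and 0.35).

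**Figure D2:**
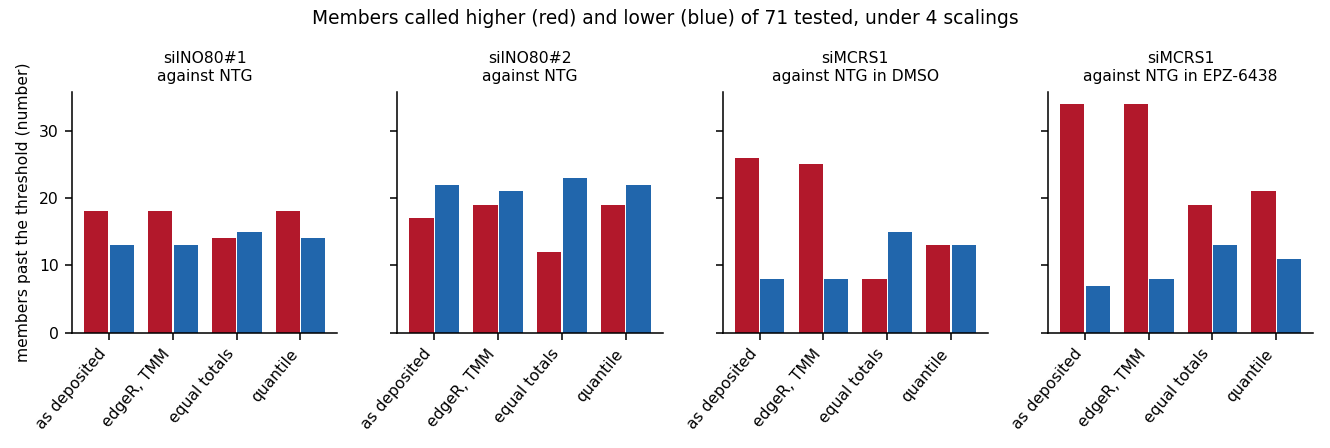
Number of members called higher and lower in each siRNA comparison under the deposited scale and the alternative scalings. The siMCRS1 bars in DMSO go from 26 and 8 as deposited to 8 and 15 under equal library totals.

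The 12 members listed as inducible by HSF1 were HSPA1A, HSPA1B, HSPA4L, HSPA8, HSPH1, HSP90AA1, HSP90AB1, HSPB1, HSPD1, HSPE1, DNAJA1 and DNAJB1. HSPD1 and HSPE1 work in mitochondria and are also in the mitochondrial list below. This list and those by compartment below were chosen with earlier results of these data known, so their counts describe the listed genes alone. Of the 12, 6 were called higher and 0 lower with siINO80#1. With siINO80#2, 5 were higher and 3 lower, HSPE1 among the lower. With siMCRS1, 4 were higher and 0 lower in DMSO and 7 higher and 0 lower in EPZ-6438, HSPD1 among the higher. Their median log2 fold changes were 0.33, 0.19, 0.33 and 0.51, beside 0.00, 0.00, 0.00 and 0.01 for all genes. Over all genes, 20.7% were called higher and 20.8% lower with siINO80#1, and 26.6% and 28.4% with siINO80#2. With siMCRS1 these shares were 23.1% and 24.6% in DMSO and 26.8% and 26.9% in EPZ-6438. The set did not move as a unit: HSP90AA1 and HSPH1 were higher with every siRNA, HSPA1A with the INO80 siRNAs, and HSPA8, HSP90AB1 and HSPD1 were called in none of the INO80 comparisons with NTG in limma on the deposited scale without a block. Under equal library totals the set had 2 higher and 1 lower in DMSO with siMCRS1, and 4 and 1 in EPZ-6438.

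HSP90AA1, the inducible cytosolic HSP90, had 26126, 22430.5 and 22379 in NTG, 42331, 34906 and 36006 with siINO80#1 and 42862, 35248 and 37188 with siINO80#2. Every siRNA library lay above every NTG library. HSP90AA1 changed by 0.67 (standard error 0.12, adjusted p = 0.00091) with siINO80#1 and by 0.70 (standard error 0.12, adjusted p = 0.00042) with siINO80#2 on the log2 scale. HSP90AA1 in the EPZ-6438 experiment had 86414 and 70615 in DMSO NTG, 130309, 131576 and 104266 in DMSO siMCRS1, 72436, 67582 and 59905 in EPZ-6438 NTG and 129774 and 128882 in EPZ-6438 siMCRS1, again without overlap. HSP90AA1 changed by 0.64 (standard error 0.15, adjusted p = 0.0052) in DMSO and by 0.96 (standard error 0.15, adjusted p = 0.00036) in EPZ-6438 with siMCRS1 on the log2 scale. The call in DMSO was lost without DMSO NTG 3, at 0.49 with an adjusted p of 0.064. Its constitutive partner HSP90AB1 had 51272, 48014 and 42503 in NTG, 53201, 47201 and 47802 with siINO80#1 and 50264, 44913 and 43453 with siINO80#2, with overlapping groups. It was called in neither INO80 comparison (log2 fold changes 0.07 at an adjusted p of 0.67 and -0.03 at an adjusted p of 0.83), although after quantile normalization the siINO80#2 value was -0.30 at an adjusted p of 0.033. HSP90AB1 had 126372 and 104883 in DMSO NTG, 147846, 140170 and 123870 in DMSO siMCRS1, 112475, 99899.5 and 91291 in EPZ-6438 NTG and 142091 and 145277 in EPZ-6438 siMCRS1. It passed the test in EPZ-6438 (log2 fold change 0.51, standard error 0.14, adjusted p = 0.012) but not in DMSO (0.25 at an adjusted p of 0.18). The EPZ-6438 call was lost without EPZ-6438 siMCRS1 B, at 0.49 with an adjusted p of 0.075.

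HSPH1 (HSP105), a nucleotide exchange factor of HSP70, had 5106, 4917 and 4552 in NTG, 7813, 6615 and 7403 with siINO80#1 and 10050.3, 7956 and 9310.3 with siINO80#2. It was 1.498-fold higher with siINO80#1 and 1.87-fold higher with siINO80#2, above all NTG libraries. HSPH1 changed by 0.58 (standard error 0.10, adjusted p = 0.00089) with siINO80#1 and by 0.90 (standard error 0.10, adjusted p = 2.6e-05) with siINO80#2 on the log2 scale. The difference between the siRNAs was 0.32 at an adjusted p of 0.041 and was not called when any of 8 libraries was left out. After siMCRS1 HSPH1 had 12234 and 12496 in DMSO NTG, 17700, 21694 and 19791 in DMSO siMCRS1, 8949, 9616 and 8490.1 in EPZ-6438 NTG and 15450.2 and 19034 in EPZ-6438 siMCRS1. HSPH1 changed by 0.67 (standard error 0.12, adjusted p = 0.0011) in DMSO and by 0.93 (standard error 0.12, adjusted p = 0.00011) in EPZ-6438 with siMCRS1 on the log2 scale. Every siMCRS1 library was above the NTG libraries of its treatment, and no left-out library ended these calls. On the deposited scale the related HSPA4 passed only with siMCRS1 in EPZ-6438 (0.31 at an adjusted p of 0.013, and -0.12 after quantile normalization), a call lost without EPZ-6438 siMCRS1 B, at 0.26. In DMSO HSPA4 was called lower after quantile normalization. HSPA4L was lower with siINO80#2 (-0.54 at an adjusted p of 0.00027). With siMCRS1 it was called in both treatments under equal totals, where it was lower, and after quantile normalization, but not on the deposited scale.

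HSPA1A and HSPA1B encode the inducible HSP70 and are near-identical copies, so the division of reads between them is uncertain. HSPA1A had 1210.1, 1184 and 1614 in NTG, 2494, 2274 and 3338 with siINO80#1 and 2451, 2239 and 3559.7 with siINO80#2. HSPA1B had 5554, 4611 and 5302 in NTG, 8053, 6419 and 7092 with siINO80#1 and 6579, 4791 and 5205 with siINO80#2. The HSPA1A libraries of both INO80 siRNAs lay above NTG (log2 fold change 1.01, standard error 0.19, adjusted p = 0.0018, and log2 fold change 1.03, standard error 0.19, adjusted p = 0.001), whereas HSPA1B rose with siINO80#1 (log2 fold change 0.48, standard error 0.13, adjusted p = 0.012) and overlapped NTG with siINO80#2 (0.09 at an adjusted p of 0.57). The sum of both copies changed by 0.61 (standard error 0.12, adjusted p = 0.002) with siINO80#1 and 0.35 (standard error 0.12, adjusted p = 0.028) with siINO80#2. HSPA1A in the EPZ-6438 experiment had 2938 and 2726 in DMSO NTG, 3564, 4240.5 and 3671 in DMSO siMCRS1, 2543, 3720.5 and 2574 in EPZ-6438 NTG and 3185 and 3854 in EPZ-6438 siMCRS1. HSPA1B there had 12156 and 12533 in DMSO NTG, 12689, 13833 and 13377 in DMSO siMCRS1, 10816, 15315 and 12649.9 in EPZ-6438 NTG and 12048 and 12955 in EPZ-6438 siMCRS1. Neither passed the test after siMCRS1, at 0.43 at an adjusted p of 0.052 and 0.27 at an adjusted p of 0.19 for HSPA1A and 0.11 at an adjusted p of 0.53 and -0.03 at an adjusted p of 0.85 for HSPA1B. HSPA1A in DMSO was called in a fit of the compared groups alone (adjusted p = 0.014), and HSPA1B in EPZ-6438 was called lower after quantile normalization (-0.44 at an adjusted p of 0.015). The summed copies changed by 0.17 (standard error 0.14, adjusted p = 0.32) in DMSO and 0.03 (standard error 0.14, adjusted p = 0.89) in EPZ-6438.

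HSPA8, the constitutive HSC70, had 33117, 29284 and 30493 in NTG, 29666, 23035 and 25303 with siINO80#1 and 41199, 32069.5 and 41383 with siINO80#2. Both INO80 groups overlapped NTG (-0.26 at an adjusted p of 0.13 and 0.30 at an adjusted p of 0.073), but siINO80#2 lay above siINO80#1 (log2 fold change 0.55, standard error 0.13, adjusted p = 0.012). That call was lost without siINO80#1 B, at 0.47 with an adjusted p of 0.05. With siINO80#1 HSPA8 was lower in all 3 same-letter pairs, and it was called under equal totals (-0.34 at an adjusted p of 0.037), after quantile normalization (-0.48 at an adjusted p of 0.0021) and with the block (adjusted p = 0.046). With siINO80#2 it was called higher in edgeR (0.32, with an adjusted p that rounds to 0.05) and with the block (adjusted p = 0.021), where the letters did not pair the libraries. HSPA8 did not pass after siMCRS1, with 100443 and 77732 in DMSO NTG, 113400, 112968 and 93112 in DMSO siMCRS1, 89215, 83570.5 and 68654 in EPZ-6438 NTG and 100792 and 104118 in EPZ-6438 siMCRS1 (0.26 at an adjusted p of 0.2 in DMSO and 0.36 at an adjusted p of 0.084 in EPZ-6438). DNAJB1 (HSP40), the stress-inducible J protein that feeds clients to HSP70, went in opposite directions with the 2 INO80 siRNAs. It had 3296, 3322 and 2958 in NTG, 5074, 4838 and 4789 with siINO80#1 and 3091, 2428 and 2399.6 with siINO80#2. The siINO80#1 libraries were all above NTG (log2 fold change 0.62, standard error 0.10, adjusted p = 0.00058), and the siINO80#2 libraries ran lower but overlapped NTG (log2 fold change -0.28, standard error 0.10, adjusted p = 0.031). The direct difference between the siRNAs was log2 fold change -0.90, standard error 0.10, adjusted p = 0.00029, with no overlap, while the fall with siINO80#2 was lost without NTG A, NTG B, siINO80#2 B or siINO80#2 C, at -0.26 to -0.22 with an adjusted p of 0.083 to 0.097. After siMCRS1 DNAJB1 had 5812 and 5843 in DMSO NTG, 7653, 8398 and 7474 in DMSO siMCRS1, 4995, 5572 and 4765 in EPZ-6438 NTG and 6756 and 7822 in EPZ-6438 siMCRS1, higher in both treatments. DNAJB1 changed by 0.43 (standard error 0.10, adjusted p = 0.0066) in DMSO and by 0.51 (standard error 0.10, adjusted p = 0.0019) in EPZ-6438 with siMCRS1 on the log2 scale. The class A J protein DNAJA1, another HSP70 partner, had 7042, 6425 and 6512 in NTG, 8229, 7149 and 7274 with siINO80#1 and 8904, 7384 and 8449.6 with siINO80#2. DNAJA1 in the EPZ-6438 experiment had 17039 and 15248 in DMSO NTG, 21822, 23334 and 19069 in DMSO siMCRS1, 15903, 15789.8 and 13508 in EPZ-6438 NTG and 20794 and 22745 in EPZ-6438 siMCRS1. It passed with siINO80#2 (0.30 at an adjusted p of 0.013) and with siMCRS1 (0.40 at an adjusted p of 0.017 and 0.53 at an adjusted p of 0.0034). The siINO80#2 call was lost without siINO80#2 A, at 0.25 with an adjusted p of 0.056, and the DMSO call was lost without DMSO NTG 3 or DMSO siMCRS1 2, at 0.32 to 0.34 with an adjusted p of 0.063 to 0.13. With siINO80#1 the value was 0.18 at an adjusted p of 0.13 without the block and was called with it (adjusted p = 0.045).

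**Figure D3:**
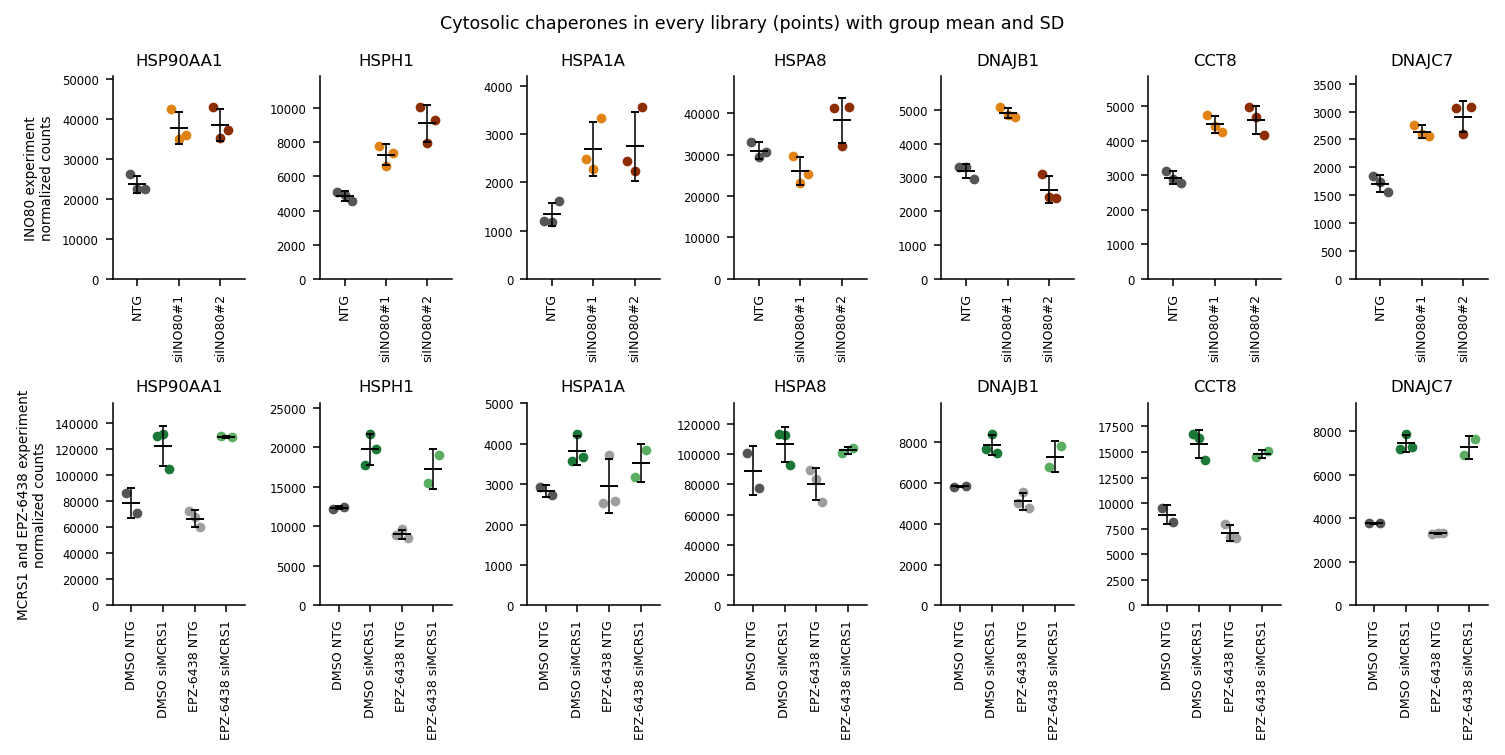
Normalized counts (linear axis) of HSP90AA1, HSPH1, HSPA1A, HSPA8, DNAJB1, CCT8 and DNAJC7 in every library, grouped by siRNA and treatment. Each point is 1 library, and the group mean and SD are drawn. HSP90AA1, HSPH1, CCT8 and DNAJC7 lie above NTG with every siRNA, and DNAJB1 lies above NTG with siINO80#1 and overlaps it with siINO80#2.

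Among the small heat shock proteins only HSPB1, HSPB8 and HSPB11 were high enough to test. HSPB1 (HSP27), which holds unfolded proteins and binds actin, had 485, 463 and 466 in NTG, 678, 828 and 966 with siINO80#1 and 543, 657 and 884 with siINO80#2, with all siINO80 libraries above NTG. HSPB1 changed by 0.79 (standard error 0.17, adjusted p = 0.0034) with siINO80#1 and by 0.53 (standard error 0.17, adjusted p = 0.02) with siINO80#2 on the log2 scale. The siINO80#2 call was lost without NTG B, NTG C or siINO80#2 C, at 0.34 to 0.52 with an adjusted p of 0.054 to 0.056. HSPB1 in the EPZ-6438 experiment had 776 and 620.3 in DMSO NTG, 1286, 1006 and 878 in DMSO siMCRS1, 1130.2, 1579.98 and 868 in EPZ-6438 NTG and 2089.6 and 1842 in EPZ-6438 siMCRS1. It was called in EPZ-6438 (log2 fold change 0.76, standard error 0.23, adjusted p = 0.017) but not in DMSO (0.59 at an adjusted p of 0.058, and 0.66 at an adjusted p of 0.035 after quantile normalization), and the former was lost without EPZ-6438 NTG 3, EPZ-6438 siMCRS1 A or EPZ-6438 siMCRS1 B, at 0.55 to 0.85 with an adjusted p of 0.051 to 0.095. HSPB8, the partner of BAG3 in chaperone-assisted autophagy, showed the largest rise of the tested members averaging 50 or more after siMCRS1. It had 189.6 and 259.6 in DMSO NTG, 438, 687 and 478 in DMSO siMCRS1, 233, 278 and 259 in EPZ-6438 NTG and 636 and 724 in EPZ-6438 siMCRS1, 2.38-fold and 2.65-fold above NTG. HSPB8 changed by 1.24 (standard error 0.21, adjusted p = 0.00071) in DMSO and by 1.40 (standard error 0.21, adjusted p = 0.00024) in EPZ-6438 with siMCRS1 on the log2 scale. No siMCRS1 library overlapped NTG, and no left-out library ended either call. In the INO80 experiment HSPB8 had 101, 183 and 151 in NTG, 119, 174 and 169.7 with siINO80#1 and 239, 198 and 236 with siINO80#2. It passed with siINO80#2 alone (log2 fold change 0.66, standard error 0.22, adjusted p = 0.023, lost without NTG A, siINO80#2 A or siINO80#2 C, at 0.43 to 0.62 with an adjusted p of 0.053 to 0.087). HSPB11, which carries the family symbol but works as IFT25 in intraflagellar transport, had 574, 539 and 513 in NTG, 342, 309 and 317 with siINO80#1 and 471, 406 and 436 with siINO80#2. HSPB11 changed by -0.75 (standard error 0.09, adjusted p = 9.6e-05) with siINO80#1 and by -0.31 (standard error 0.09, adjusted p = 0.013) with siINO80#2 on the log2 scale, with siINO80#2 above siINO80#1 (0.44 at an adjusted p of 0.0068). The siINO80#2 call was lost without NTG A, at -0.27 with an adjusted p of 0.056.

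The 8 members listed for the endoplasmic reticulum were HSPA5, HSPA13, HSP90B1, DNAJB9, DNAJB11, DNAJC1, DNAJC3 and DNAJC10. Nearly all of these were called higher after siMCRS1 on the deposited scale. The list does not hold every member of that compartment, and its counts describe the listed genes, not the compartment. DNAJB12, DNAJB14, DNAJC14, DNAJC16 and DNAJC18 are outside it, and none was called after siMCRS1 on that scale. Under equal totals DNAJB14 was called lower in DMSO and DNAJC14 in both treatments, and edgeR called DNAJC14 lower in EPZ-6438. Higher and lower calls in the list numbered 7 and 0 in DMSO and 8 and 0 in EPZ-6438, with median log2 fold changes of 0.42 and 0.52 (all genes 0.00 and 0.01). They numbered 3 and 1 with siINO80#1 and 3 and 3 with siINO80#2 (medians 0.16 and -0.05). The shares of all genes called higher and lower were 23.1% and 24.6% in DMSO and 26.8% and 26.9% in EPZ-6438. With the INO80 siRNAs they were 20.7% and 20.8%, and 26.6% and 28.4%. The siMCRS1 counts shrank with the scaling, to 1 and 5 higher under equal library totals and 2 and 4 after quantile normalization, with none lower. Under equal totals the median of the list in DMSO was 0.18, beside -0.23 for all genes.

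HSPA5 (BiP), the HSP70 of the endoplasmic reticulum, had 46260.4 and 37966 in DMSO NTG, 57804, 61418 and 47319.6 in DMSO siMCRS1, 42142, 41248 and 37139 in EPZ-6438 NTG and 57329 and 57374 in EPZ-6438 siMCRS1. All siMCRS1 libraries were above the matching NTG libraries (log2 fold change 0.40, standard error 0.14, adjusted p = 0.035 in DMSO and log2 fold change 0.52, standard error 0.14, adjusted p = 0.0089 in EPZ-6438). The call in DMSO was lost without DMSO NTG 3, DMSO siMCRS1 1 or DMSO siMCRS1 2, at 0.25 to 0.36 with an adjusted p of 0.09 to 0.27, and that in EPZ-6438 was lost without EPZ-6438 siMCRS1 B, at 0.52 with an adjusted p of 0.056. With the INO80 siRNAs HSPA5 had 25783, 22789.8 and 23917 in NTG, 27929, 23408 and 24749.9 with siINO80#1 and 19884, 19494 and 16108 with siINO80#2. It overlapped NTG with siINO80#1 (0.07 at an adjusted p of 0.65), fell with siINO80#2 (log2 fold change -0.39, standard error 0.11, adjusted p = 0.0098) and was lower with siINO80#2 than with siINO80#1 (-0.46 at an adjusted p of 0.013, lost without siINO80#1 A, at -0.39 with an adjusted p of 0.057). HSP90B1 (GRP94), the HSP90 of this compartment, had 25940.1, 21646 and 23307 in NTG, 31285, 24968 and 27758 with siINO80#1 and 25843, 24667 and 24821 with siINO80#2, with overlapping groups (0.24 at an adjusted p of 0.084 and 0.09 at an adjusted p of 0.48). It was higher in all 3 same-letter pairs of siINO80#1 and NTG, and called there with the block (adjusted p = 0.036). After siMCRS1 it had 40412 and 37365 in DMSO NTG, 52045, 53345 and 46576 in DMSO siMCRS1, 38950.2, 37550.1 and 37605 in EPZ-6438 NTG and 54729.7 and 53474 in EPZ-6438 siMCRS1. HSP90B1 changed by 0.38 (standard error 0.10, adjusted p = 0.011) in DMSO and by 0.51 (standard error 0.10, adjusted p = 0.0018) in EPZ-6438 with siMCRS1 on the log2 scale, and the DMSO call was lost without DMSO NTG 3, at 0.32 with an adjusted p of 0.092.

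DNAJB9 (ERdj4), a J partner of HSPA5 that helps remove misfolded proteins, rose the most of the list after siMCRS1. It had 1948 and 1904 in DMSO NTG, 3242, 3727 and 2919 in DMSO siMCRS1, 1829, 1519 and 1765 in EPZ-6438 NTG and 3331 and 3668 in EPZ-6438 siMCRS1, 1.71-fold and 2.05-fold higher. DNAJB9 changed by 0.77 (standard error 0.12, adjusted p = 0.00057) in DMSO and by 1.04 (standard error 0.12, adjusted p = 6.6e-05) in EPZ-6438 with siMCRS1 on the log2 scale, and no left-out library ended the calls. With the INO80 siRNAs DNAJB9 overlapped NTG, at 1145, 1023 and 1262 in NTG, 1189, 1243 and 1134 with siINO80#1 and 1048, 1144 and 832 with siINO80#2 (0.06 at an adjusted p of 0.72 and -0.19 at an adjusted p of 0.2). DNAJC3 (p58IPK), a lumenal J protein that also restrains the kinase PERK, had 3072, 3181 and 3217 in NTG, 3235, 2842 and 3097 with siINO80#1 and 2237, 2337 and 1883 with siINO80#2. It overlapped NTG with siINO80#1 (-0.05 at an adjusted p of 0.7), lay below it with siINO80#2 (log2 fold change -0.56, standard error 0.09, adjusted p = 3e-04) and differed between the siRNAs (-0.51 at an adjusted p of 0.0028). After siMCRS1 it went the other way, with 5153 and 5168 in DMSO NTG, 6517, 7963 and 6526 in DMSO siMCRS1, 4821, 5081 and 5263 in EPZ-6438 NTG and 6919.9 and 7694 in EPZ-6438 siMCRS1. DNAJC3 changed by 0.43 (standard error 0.11, adjusted p = 0.0072) in DMSO and by 0.53 (standard error 0.11, adjusted p = 0.0019) in EPZ-6438 with siMCRS1 on the log2 scale. HSPA13, an HSP70 bound to microsomes, had 2058, 1964 and 2058 in NTG, 1533, 1553 and 1420.2 with siINO80#1 and 1272, 1457 and 998 with siINO80#2. HSPA13 in the EPZ-6438 experiment had 3579 and 3786 in DMSO NTG, 3849, 4801 and 4217 in DMSO siMCRS1, 3354, 3213 and 3201 in EPZ-6438 NTG and 3898 and 4997 in EPZ-6438 siMCRS1. It fell with both INO80 siRNAs (log2 fold change -0.43, standard error 0.12, adjusted p = 0.012, and log2 fold change -0.72, standard error 0.12, adjusted p = 0.00037) and passed as higher with siMCRS1 in EPZ-6438 (0.44 at an adjusted p of 0.012, lost without EPZ-6438 siMCRS1 B, at 0.26 with an adjusted p of 0.17) but not in DMSO (0.21 at an adjusted p of 0.18). DNAJB11 (ERdj3) and DNAJC10 (ERdj5, a disulfide reductase) were higher in all 4 siRNA comparisons with NTG, by 0.56, 0.45, 0.44 and 0.44 for DNAJB11 and 0.31, 0.30, 0.30 and 0.59 for DNAJC10 on the log2 scale. The DMSO call of DNAJC10 was lost without DMSO NTG 1 or DMSO siMCRS1 2, at 0.24 to 0.25 with an adjusted p of 0.078 to 0.15, and the value was -0.016 after quantile normalization.

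**Figure D4:**
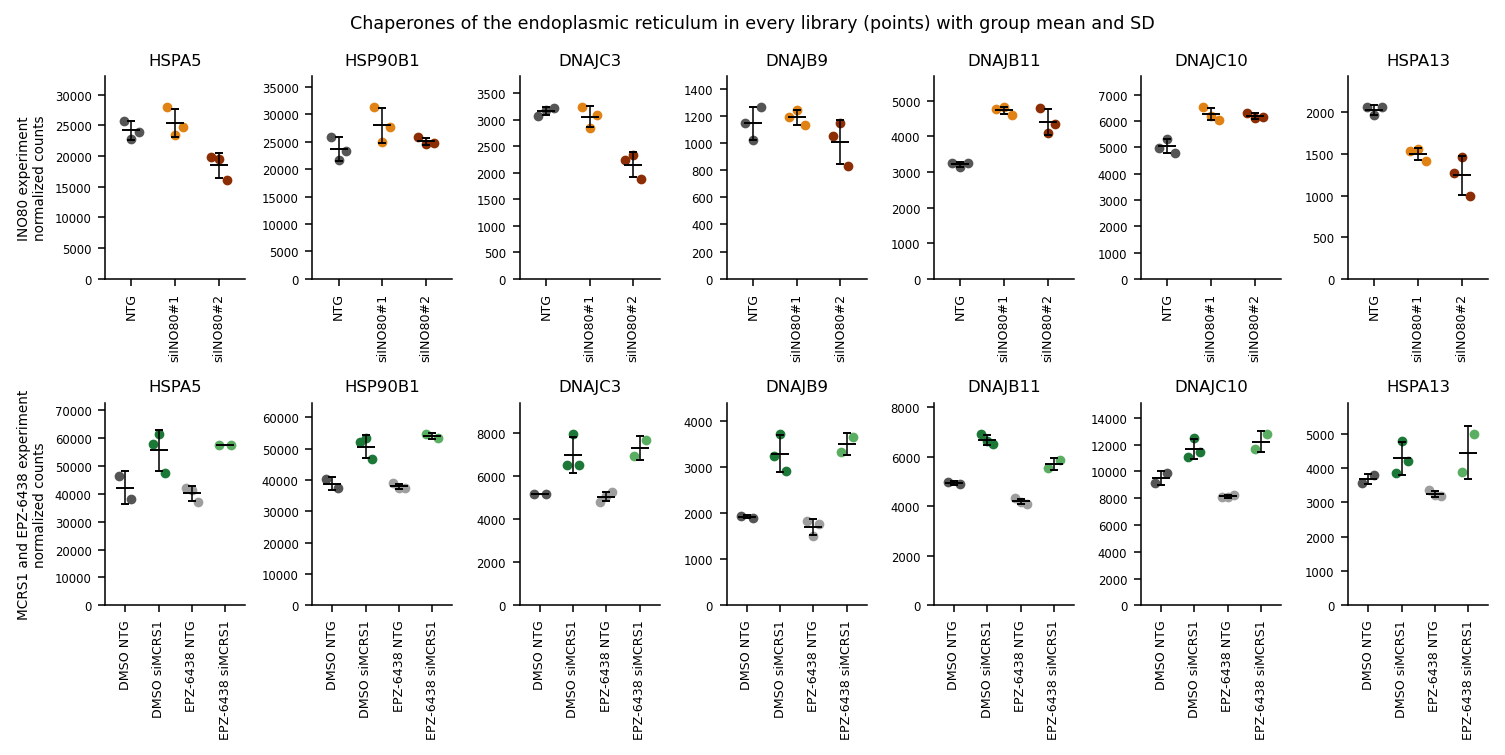
Normalized counts (linear axis) of 7 members of the endoplasmic reticulum in every library, with each point 1 library and the group mean and SD drawn. HSPA5, HSP90B1, DNAJC3 and DNAJB9 lie above the matching NTG libraries with siMCRS1, and DNAJC3 and HSPA13 lie below NTG with siINO80#2.

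The 7 members listed as mitochondrial were HSPA9, HSPD1, HSPE1, DNAJA3, DNAJC11, DNAJC15 and DNAJC19. They were called lower with the INO80 siRNAs or not at all. Of 7, 4 were lower and 0 higher with siINO80#1, and 6 lower and 0 higher with siINO80#2, with medians of -0.21 and -0.48 (all genes 0.00 and 0.00). After siMCRS1, 1 was higher and 2 lower in DMSO, and 2 and 2 in EPZ-6438 (medians 0.14 and 0.24). Not every mitochondrial member is in this list. DNAJC4, DNAJC28 and DNAJC30 are outside it and were called lower with siMCRS1 in both treatments. The counts describe the listed genes, not the compartment. Of all genes, 20.7% were called higher and 20.8% lower with siINO80#1, and 26.6% and 28.4% with siINO80#2. With siMCRS1 these shares were 23.1% and 24.6% in DMSO and 26.8% and 26.9% in EPZ-6438. Under equal totals and under quantile normalization all 7 listed members were lower with siINO80#2. HSPA9 (mortalin), the HSP70 that pulls imported proteins into the matrix, had 12663, 12461 and 11646 in NTG, 10344, 9689 and 9384 with siINO80#1 and 9487, 8548 and 8429 with siINO80#2. HSPA9 changed by -0.32 (standard error 0.08, adjusted p = 0.0064) with siINO80#1 and by -0.48 (standard error 0.08, adjusted p = 0.00036) with siINO80#2 on the log2 scale, and both INO80 groups lay below NTG. HSPA9 in the EPZ-6438 experiment had 26533 and 23312 in DMSO NTG, 26248, 26648 and 23358 in DMSO siMCRS1, 22406, 21045 and 18959.7 in EPZ-6438 NTG and 24697 and 24204 in EPZ-6438 siMCRS1. It did not pass (0.03 at an adjusted p of 0.85 in DMSO and 0.24 at an adjusted p of 0.096 in EPZ-6438), and after quantile normalization its DMSO value was -0.33 with an adjusted p of 0.0098. HSPD1 (HSP60) and HSPE1 (HSP10), which form the folding chamber of the matrix, are neighbours transcribed from a shared promoter region. HSPD1 had 40468, 37864 and 35638 in NTG, 39718, 34239 and 34351 with siINO80#1 and 35249.7, 32336 and 30230.3 with siINO80#2. HSPE1 had 7472, 6574 and 6415 in NTG, 6333, 5813 and 5619 with siINO80#1 and 5442, 4896 and 3781 with siINO80#2. Of the pair only HSPE1 with siINO80#2 passed (log2 fold change -0.55, standard error 0.12, adjusted p = 0.0031). HSPD1 with siINO80#2, at -0.22 at an adjusted p of 0.089, was called lower under equal totals (-0.33 at an adjusted p of 0.031) and after quantile normalization (-0.40 at an adjusted p of 0.0063). HSPE1 with siINO80#1, at -0.20 at an adjusted p of 0.22, was called in the blocked fit of 6 libraries (adjusted p = 0.0022). After siMCRS1 HSPD1 had 103072 and 88629.7 in DMSO NTG, 116006, 117296 and 98162 in DMSO siMCRS1, 87645, 75758 and 69551 in EPZ-6438 NTG and 113207 and 112565 in EPZ-6438 siMCRS1. It was called in EPZ-6438 (log2 fold change 0.55, standard error 0.14, adjusted p = 0.0076). HSPE1 had 14040.5 and 17324 in DMSO NTG, 18467, 17979.6 and 17615 in DMSO siMCRS1, 16928, 15962 and 15686 in EPZ-6438 NTG and 19287 and 19207 in EPZ-6438 siMCRS1. It was not called (0.21 at an adjusted p of 0.12 and 0.25 at an adjusted p of 0.064). HSPE1 shares exons with the readthrough gene HSPE1-MOB4.

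DNAJA3 (TID1), the J partner of HSPA9, had 1576, 1447 and 1467 in NTG, 1276, 1166 and 1293 with siINO80#1 and 706, 714 and 632 with siINO80#2. It fell to 45.7% of NTG with siINO80#2 (log2 fold change -1.13, standard error 0.08, adjusted p = 1.2e-06) and less with siINO80#1 (log2 fold change -0.27, standard error 0.08, adjusted p = 0.018), and the siRNAs differed without overlap (log2 fold change -0.86, standard error 0.08, adjusted p = 9.9e-05). Its siINO80#1 call was lost without NTG A or siINO80#1 B, at -0.23 to -0.22 with an adjusted p of 0.072 to 0.078. After siMCRS1 DNAJA3 had 3222 and 2508 in DMSO NTG, 2420.5, 2061 and 1894 in DMSO siMCRS1, 2812, 2952 and 2619.8 in EPZ-6438 NTG and 2128 and 1916 in EPZ-6438 siMCRS1 (-0.43 at an adjusted p of 0.024 and -0.47 at an adjusted p of 0.014). The DMSO call was lost without DMSO NTG 1, DMSO siMCRS1 2 or DMSO siMCRS1 3, at -0.41 to -0.25 with an adjusted p of 0.066 to 0.25, and the EPZ-6438 call was lost without EPZ-6438 siMCRS1 B, at -0.39 with an adjusted p of 0.11. DNAJC19, a subunit of the import motor, was lower in 3 of the 4 comparisons with NTG. It had 384, 349 and 331 in NTG, 262, 303 and 295 with siINO80#1 and 201, 233 and 171 with siINO80#2 (-0.31 at an adjusted p of 0.074 and -0.82 at an adjusted p of 0.00025). The siINO80#1 value was called in the blocked fit of 6 libraries (adjusted p = 0.013). DNAJC19 in the EPZ-6438 experiment had 832 and 808 in DMSO NTG, 496, 415 and 434 in DMSO siMCRS1, 985, 737 and 741 in EPZ-6438 NTG and 508 and 417 in EPZ-6438 siMCRS1. DNAJC19 changed by -0.87 (standard error 0.16, adjusted p = 0.0011) in DMSO and by -0.82 (standard error 0.16, adjusted p = 0.0013) in EPZ-6438 with siMCRS1 on the log2 scale. The siRNAs differed by -0.52 at an adjusted p of 0.015, a call lost without siINO80#1 B or siINO80#1 C, at -0.49 to -0.47 with an adjusted p of 0.054 to 0.057. Its relative DNAJC15, of the same motor, fell with the INO80 siRNAs by 0.20 and 0.36 on the log2 scale (adjusted p = 0.045 and 0.0016) and rose with siMCRS1 (0.55 at an adjusted p of 0.0021 and 0.60 at an adjusted p of 0.00098). The siINO80#1 call was lost without NTG A, siINO80#1 A, siINO80#2 A, NTG B, siINO80#1 B, NTG C or siINO80#1 C, at -0.24 to -0.17 with an adjusted p of 0.056 to 0.15. DNAJC30, a mitochondrial J protein outside the 7 listed, fell with every siRNA. It had 348, 387 and 345 in NTG, 185, 157 and 169 with siINO80#1 and 109.9, 129 and 99.2 with siINO80#2, so 47.3% and 31.4% of NTG remained. DNAJC30 changed by -1.08 (standard error 0.13, adjusted p = 7.9e-05) with siINO80#1 and by -1.67 (standard error 0.13, adjusted p = 2.2e-06) with siINO80#2 on the log2 scale, and siINO80#2 lay below siINO80#1 (-0.59 at an adjusted p of 0.0079). DNAJC30 in the EPZ-6438 experiment had 525 and 471 in DMSO NTG, 183, 156 and 138 in DMSO siMCRS1, 432, 672 and 481 in EPZ-6438 NTG and 169.6 and 142 in EPZ-6438 siMCRS1. DNAJC30 changed by -1.65 (standard error 0.20, adjusted p = 0.00013) in DMSO and by -1.74 (standard error 0.20, adjusted p = 6.3e-05) in EPZ-6438 with siMCRS1 on the log2 scale. No siRNA library overlapped NTG, and no left-out library and no scaling ended these calls.

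**Figure D5:**
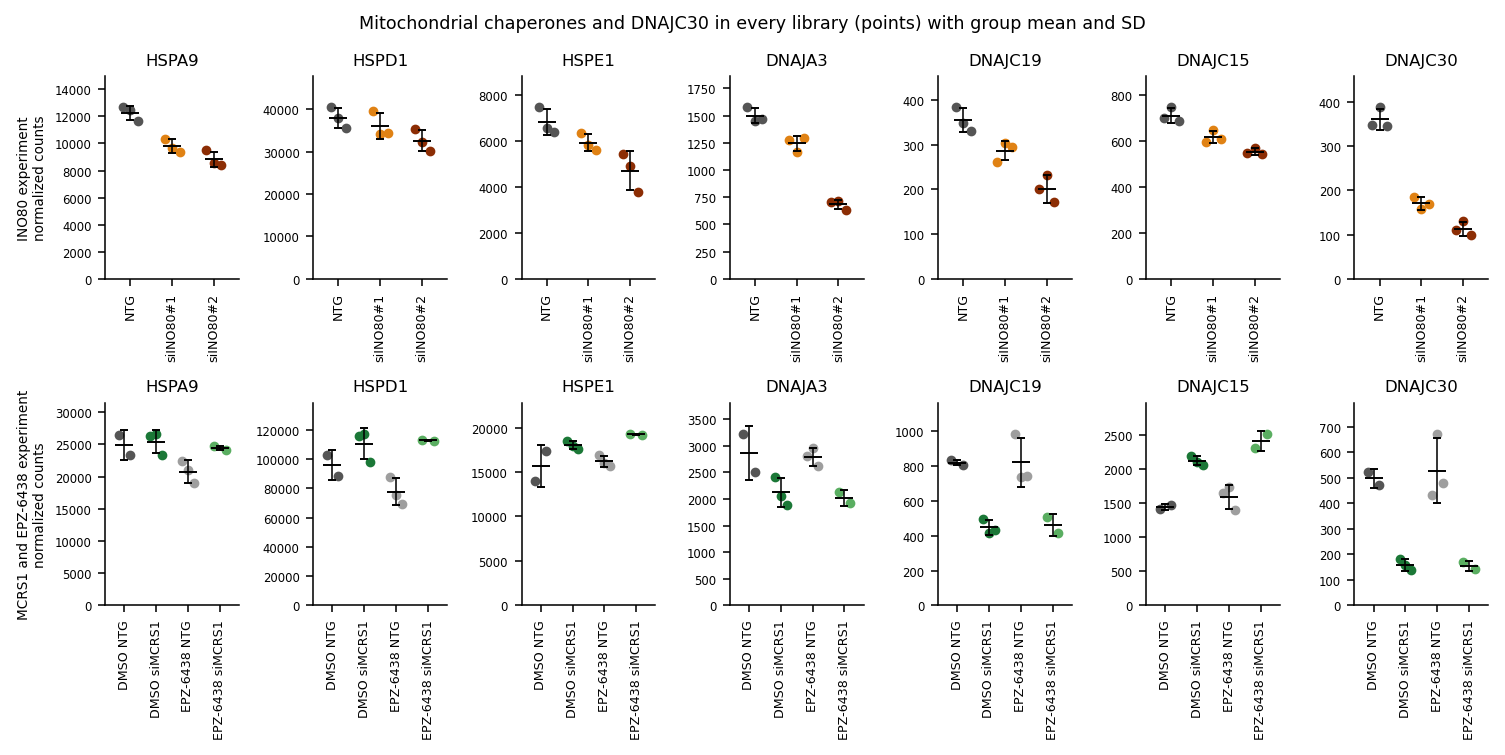
Normalized counts (linear axis) of 7 mitochondrial members in every library, with each point 1 library and the group mean and SD drawn. DNAJC30 lies below NTG with every siRNA, and DNAJA3 and HSPA9 lie below NTG with both INO80 siRNAs.

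The chaperonin ring is built from TCP1 and 7 further subunits in fixed proportion, yet their transcripts did not change together. Of 9 genes (CCT6B, a testis form, included), 1 higher and 0 lower were called with siINO80#1, 1 higher and 2 lower with siINO80#2, 3 higher and 0 lower in DMSO and 6 higher and 0 lower in EPZ-6438 after siMCRS1 (medians 0.02, -0.09, 0.33 and 0.45). With siINO80#1 the block gave 2 higher and 1 lower, and 2 higher and 2 lower in 6 libraries. The count in EPZ-6438 was 3 under equal library totals and 1 after quantile normalization. In DMSO CCT8 alone of the higher calls was kept under these scalings, and CCT6A was called lower after quantile normalization. Without a block, 20.7% of all genes were called higher and 20.8% lower with siINO80#1, and 26.6% and 28.4% with siINO80#2. With siMCRS1 these shares were 23.1% and 24.6% in DMSO and 26.8% and 26.9% in EPZ-6438. CCT8 was higher with every siRNA. It had 3125, 2896 and 2765 in NTG, 4742, 4424 and 4265 with siINO80#1 and 4966, 4685 and 4162 with siINO80#2. CCT8 changed by 0.61 (standard error 0.08, adjusted p = 0.00021) with siINO80#1 and by 0.65 (standard error 0.08, adjusted p = 7.2e-05) with siINO80#2 on the log2 scale. CCT8 in the EPZ-6438 experiment had 9537 and 8203 in DMSO NTG, 16774, 16331 and 14219 in DMSO siMCRS1, 7957, 6667 and 6561 in EPZ-6438 NTG and 14499 and 15088 in EPZ-6438 siMCRS1. CCT8 changed by 0.83 (standard error 0.12, adjusted p = 0.00031) in DMSO and by 1.07 (standard error 0.12, adjusted p = 4.7e-05) in EPZ-6438 with siMCRS1 on the log2 scale. All its siRNA libraries were above NTG, and no left-out library ended a call. TCP1 had 8715, 8903 and 8372 in NTG, 9398, 8898 and 8885 with siINO80#1 and 8999, 8511 and 7001 with siINO80#2. TCP1 in the EPZ-6438 experiment had 25515 and 20690.1 in DMSO NTG, 30633, 30796 and 26404 in DMSO siMCRS1, 22198, 17478 and 16496 in EPZ-6438 NTG and 28126 and 29084 in EPZ-6438 siMCRS1. It passed only with siMCRS1 in EPZ-6438 (log2 fold change 0.62, standard error 0.15, adjusted p = 0.0041). CCT2 had 4240.4, 4151 and 3791 in NTG, 5123, 4767 and 4621 with siINO80#1 and 5529, 4856 and 3936 with siINO80#2. CCT2 in the EPZ-6438 experiment had 12712 and 10935 in DMSO NTG, 16446, 17145 and 14467 in DMSO siMCRS1, 11354, 8869 and 8661 in EPZ-6438 NTG and 15135 and 15859 in EPZ-6438 siMCRS1. It was higher with siMCRS1 in both treatments (0.44 at an adjusted p of 0.02 and 0.70 at an adjusted p of 0.0013). With siINO80#1 it was 0.25 at an adjusted p of 0.093, higher in all 3 same-letter pairs and called with the block (adjusted p = 0.027). The CCT2 call in DMSO was lost without DMSO NTG 3 or DMSO siMCRS1 2, at 0.33 to 0.39 with an adjusted p of 0.067 to 0.15. CCT5 had 6596, 6422 and 5955 in NTG, 6724, 5961 and 5889.9 with siINO80#1 and 7116, 6224 and 5627 with siINO80#2. CCT5 in the EPZ-6438 experiment had 19123 and 15305 in DMSO NTG, 22588, 23450.3 and 18635 in DMSO siMCRS1, 17818, 14329.9 and 13264 in EPZ-6438 NTG and 21737 and 22465 in EPZ-6438 siMCRS1. It was called in EPZ-6438 alone (0.56 at an adjusted p of 0.0099, lost without EPZ-6438 siMCRS1 B, at 0.53 with an adjusted p of 0.065). CCT3 and CCT7 were the subunits called lower with siINO80#2 on the deposited scale (-0.53 at an adjusted p of 0.0022 and -0.28 at an adjusted p of 0.0051). CCT4 was also called there after quantile normalization. With siINO80#1 CCT7 was at -0.18 at an adjusted p of 0.051, called with the block (adjusted p = 0.028), under equal totals (-0.27 at an adjusted p of 0.035) and after quantile normalization (-0.26 at an adjusted p of 0.0046). CCT7 was higher after siMCRS1, both in DMSO (0.40 at an adjusted p of 0.021) and in EPZ-6438 (0.42 at an adjusted p of 0.015, and -0.012 after quantile normalization). The DMSO call of CCT7 was lost without DMSO NTG 3, DMSO siMCRS1 1 or DMSO siMCRS1 2, at 0.32 to 0.38 with an adjusted p of 0.053 to 0.15, and the EPZ-6438 call was lost without EPZ-6438 NTG 3 or EPZ-6438 siMCRS1 B, at 0.34 to 0.36 with an adjusted p of 0.052 to 0.12.

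J proteins start the HSP70 cycle and direct it to places and clients. Of the 26 class C genes, 8 higher and 8 lower were called with siINO80#1, 5 higher and 11 lower with siINO80#2, 9 higher and 6 lower in DMSO and 10 higher and 5 lower in EPZ-6438 after siMCRS1. Class B, with 11 tested members in the INO80 experiment and 10 in the other, gave 3 higher and 1 lower, 3 higher and 2 lower, 5 higher and 0 lower and 5 higher and 0 lower, and class A 0 higher and 1 lower, 1 higher and 1 lower, 2 higher and 1 lower and 2 higher and 1 lower of 3 and 4 members. With the block class A had 1 higher and 1 lower with siINO80#1, and 2 higher and 1 lower in the fit of 6 libraries. Without it, the class C shares were 30.8% higher and 30.8% lower with siINO80#1 (all genes 20.7% and 20.8%). With siINO80#2 they were 19.2% and 42.3% (all genes 26.6% and 28.4%). After siMCRS1 they were 34.6% and 23.1% in DMSO (all genes 23.1% and 24.6%) and 38.5% and 19.2% in EPZ-6438 (all genes 26.8% and 26.9%). DNAJC7 (TPR2), which binds both HSP70 and HSP90, rose with every siRNA. It had 1838, 1735 and 1549 in NTG, 2766, 2599 and 2559 with siINO80#1 and 3059, 2591 and 3075 with siINO80#2. DNAJC7 changed by 0.63 (standard error 0.09, adjusted p = 0.00026) with siINO80#1 and by 0.77 (standard error 0.09, adjusted p = 3.8e-05) with siINO80#2 on the log2 scale. DNAJC7 in the EPZ-6438 experiment had 3766 and 3757 in DMSO NTG, 7150.1, 7865 and 7269 in DMSO siMCRS1, 3274, 3301 and 3331 in EPZ-6438 NTG and 6881 and 7617 in EPZ-6438 siMCRS1. DNAJC7 changed by 0.98 (standard error 0.09, adjusted p = 2.5e-05) in DMSO and by 1.13 (standard error 0.09, adjusted p = 8.2e-06) in EPZ-6438 with siMCRS1 on the log2 scale. No siRNA library overlapped NTG, and leaving out any library kept the calls. DNAJC7 overlaps CNP in the annotation, and whether reads were counted by strand is not given in the sources used here. DNAJB5 had 70.3, 92.4 and 85.4 in NTG, 131, 153 and 129 with siINO80#1 and 184, 175 and 236 with siINO80#2, above NTG with both siRNAs. DNAJB5 changed by 0.73 (standard error 0.16, adjusted p = 0.0037) with siINO80#1 and by 1.25 (standard error 0.16, adjusted p = 6.9e-05) with siINO80#2 on the log2 scale. The call between the siRNAs (0.52 at an adjusted p of 0.039) was lost without siINO80#1 A, siINO80#2 A, siINO80#1 B, NTG C, siINO80#1 C or siINO80#2 C, at 0.38 to 0.59 with an adjusted p of 0.053 to 0.12. After siMCRS1 DNAJB5 had 67.0 and 80.2 in DMSO NTG, 127, 110.1 and 103 in DMSO siMCRS1, 121, 141 and 155 in EPZ-6438 NTG and 162 and 122 in EPZ-6438 siMCRS1. It passed in DMSO only (0.62 at an adjusted p of 0.028, lost without DMSO NTG 1, DMSO NTG 3, DMSO siMCRS1 1 or DMSO siMCRS1 2, at 0.49 to 0.74 with an adjusted p of 0.051 to 0.19). DNAJC18 had 98.1, 94.4 and 98.9 in NTG, 143, 137 and 133 with siINO80#1 and 246, 193 and 209.7 with siINO80#2, 1.42-fold and 2.23-fold above NTG. DNAJC18 changed by 0.50 (standard error 0.12, adjusted p = 0.0071) with siINO80#1 and by 1.14 (standard error 0.12, adjusted p = 2.1e-05) with siINO80#2 on the log2 scale, and siINO80#2 lay above siINO80#1 (0.64 at an adjusted p of 0.0044).

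DNAJC28 and DNAJC4 changed most with siMCRS1 among the class C genes apart from DNAJC30. DNAJC28 had 94.8 and 76.3 in DMSO NTG, 39.0, 39.7 and 28.6 in DMSO siMCRS1, 76.5, 83.1 and 69.4 in EPZ-6438 NTG and 28.0 and 26.6 in EPZ-6438 siMCRS1. DNAJC28 changed by -1.24 (standard error 0.24, adjusted p = 0.0018) in DMSO and by -1.45 (standard error 0.24, adjusted p = 0.00056) in EPZ-6438 with siMCRS1 on the log2 scale, and overlapped NTG with the INO80 siRNAs (0.04 at an adjusted p of 0.87 and 0.12 at an adjusted p of 0.56). DNAJC4 had 354 and 257 in DMSO NTG, 155, 139 and 109 in DMSO siMCRS1, 305, 413 and 329 in EPZ-6438 NTG and 165 and 148 in EPZ-6438 siMCRS1. DNAJC4 changed by -1.18 (standard error 0.21, adjusted p = 0.0011) in DMSO and by -1.14 (standard error 0.21, adjusted p = 0.001) in EPZ-6438 with siMCRS1 on the log2 scale, and passed with siINO80#2 (-0.42 at an adjusted p of 0.02, lost without siINO80#2 A or NTG C, at -0.35 to -0.30 with an adjusted p of 0.076 to 0.088) but not with siINO80#1 (-0.28 at an adjusted p of 0.13, and 0.026 in the blocked fit of 6 libraries). For both genes every siMCRS1 library was below the NTG libraries of its treatment. HSPA1L, the testis form of HSP70, had low levels and the same direction. It had 72.8 and 58.2 in DMSO NTG, 21.1, 41.9 and 21.5 in DMSO siMCRS1, 90.5, 83.1 and 70.4 in EPZ-6438 NTG and 24.0 and 31.1 in EPZ-6438 siMCRS1. HSPA1L changed by -1.25 (standard error 0.32, adjusted p = 0.0086) in DMSO and by -1.53 (standard error 0.32, adjusted p = 0.0023) in EPZ-6438 with siMCRS1 on the log2 scale, and the DMSO call was lost without DMSO NTG 1, at -1.09 with an adjusted p of 0.077. DNAJC6 (auxilin), which uncoats clathrin vesicles with HSPA8, had 32.3, 51.3 and 38.4 in NTG, 60.8, 76.3 and 54.2 with siINO80#1 and 58.3, 73.5 and 63.3 with siINO80#2 (0.65 at an adjusted p of 0.031 and 0.68 at an adjusted p of 0.019). The siINO80#1 call was lost without NTG A, siINO80#1 A, siINO80#1 B or NTG C, at 0.50 to 0.67 with an adjusted p of 0.062 to 0.12, and the siINO80#2 call was lost without NTG A, siINO80#2 B or NTG C, at 0.53 to 0.65 with an adjusted p of 0.054 to 0.074. DNAJC13 (RME-8), an endosomal J protein, had 2247, 2174 and 2106 in NTG, 1839.7, 1695 and 1829.5 with siINO80#1 and 1440.4, 1248 and 1419 with siINO80#2. DNAJC13 changed by -0.28 (standard error 0.07, adjusted p = 0.011) with siINO80#1 and by -0.67 (standard error 0.07, adjusted p = 2.7e-05) with siINO80#2 on the log2 scale. Its value with siMCRS1 in DMSO was -0.44 at an adjusted p of 0.012, lost without DMSO NTG 3, at -0.33 with an adjusted p of 0.12. DNAJC17, of the spliceosome, had 151, 159 and 161 in NTG, 105, 123 and 127 with siINO80#1 and 121, 137 and 145 with siINO80#2. It passed with siINO80#1 (-0.41 at an adjusted p of 0.023, lost without siINO80#1 A, NTG B or NTG C, at -0.40 to -0.33 with an adjusted p of 0.062 to 0.086). DNAJB4 had 507, 510.2 and 506 in NTG, 449, 345 and 311 with siINO80#1 and 413, 384 and 415 with siINO80#2. It was lower with both siRNAs (-0.48 at an adjusted p of 0.0093 and -0.33 at an adjusted p of 0.04). The latter call was lost without NTG A, siINO80#2 A, NTG B, siINO80#1 B, siINO80#2 B or NTG C, at -0.35 to -0.29 with an adjusted p of 0.051 to 0.097. The atypical HSP70 genes HSPA12A and HSPA12B were low. HSPA12A had 278, 296 and 252 in NTG, 306, 300.4 and 288 with siINO80#1 and 431, 361 and 368 with siINO80#2. It passed with siINO80#2 (0.49 at an adjusted p of 0.002) and between the siRNAs (0.37 at an adjusted p of 0.026, lost without siINO80#1 A, siINO80#2 A, siINO80#1 B or siINO80#1 C, at 0.29 to 0.39 with an adjusted p of 0.059 to 0.096). HSPA12B had 35.4 and 42.9 in DMSO NTG, 66.8, 63.9 and 70.2 in DMSO siMCRS1, 49.6, 58.3 and 42.1 in EPZ-6438 NTG and 70.4 and 54.1 in EPZ-6438 siMCRS1. It passed in DMSO (0.76 at an adjusted p of 0.022, lost without DMSO NTG 1 or DMSO siMCRS1 3, at 0.63 to 0.73 with an adjusted p of 0.057 to 0.15) but not in EPZ-6438 (0.31 at an adjusted p of 0.3). With the INO80 siRNAs it rose by 1.26 and 1.65 (adjusted p = 0.0047 and 0.00058) on the log2 scale, from a mean of 22.7 in NTG.

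The other 10 members of each table were not tested. DNAJB3 and HSPB3 were listed at 0 in every library of both experiments. HSPA7 was at 0 throughout the INO80 experiment and in 9 of the 10 other libraries. HSPA6, HSPB9 and HSPB6 averaged 4.84, 6.32 and 2.44 normalized counts in the first experiment and 2.19, 7.72 and 2.16 in the other, where 3 reads are worth 2.13 to 4.30 normalized counts depending on the library. DNAJB8, HSPB2 and HSPB7 stayed under 1 on average. DNAJA4 was tested only in the EPZ-6438 experiment and DNAJB13 only in the INO80 experiment, and neither passed. The spans of several tested members overlap another gene in the annotation, among them HSP90AA1 with WDR20, DNAJB1 with TECR, TCP1 with ACAT2, CCT4 with COMMD1 and DNAJC25 with DNAJC25-GNG10. These are whole gene spans, and whether exons, and so reads, are shared was not examined.

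Genes that act with the chaperones but are outside the family symbols were read for context. The background for their counts was 20.7% of all genes higher and 20.8% lower with siINO80#1, and 26.6% and 28.4% with siINO80#2. With siMCRS1 it was 23.1% and 24.6% in DMSO and 26.8% and 26.9% in EPZ-6438. Of 13 HSP70 cochaperones, 3 higher and 3 lower were called with siINO80#1, 4 higher and 7 lower with siINO80#2, 3 higher and 3 lower in DMSO and 5 higher and 3 lower in EPZ-6438 after siMCRS1. In the blocked fit of 6 libraries the siINO80#1 count was 5 higher and 7 lower. BAG3, an exchange factor and the partner of HSPB8, rose in all 4, on the log2 scale by 0.43, 0.58, 0.80 and 0.86 (adjusted p = 0.0063, 0.00069, 0.0041 and 0.0024). GRPEL1, the exchange factor of HSPA9 in mitochondria, fell in all 4 (log2 fold changes -0.84, -0.93, -0.50 and -0.32, with adjusted p = 7.4e-05, 1.8e-05, 0.0025 and 0.023). Of 10 HSP90 cochaperones, 2 higher and 2 lower, 4 higher and 1 lower, 4 higher and 0 lower and 6 higher and 0 lower were called in the same order, and of the 6 prefoldin subunits, which pass actin and tubulin to the chaperonin, 0 higher and 4 lower, 0 higher and 2 lower, 1 higher and 1 lower and 2 higher and 1 lower. Of the 4 regulators, 0 higher and 1 lower, 0 higher and 2 lower, 0 higher and 0 lower and 1 higher and 1 lower were called. With siINO80#1 the block called 4 higher and 2 lower of the HSP90 cochaperones and 1 higher and 2 lower of the regulators, and the fit of 6 libraries 6 higher and 3 lower and 1 higher and 2 lower. HSF1 itself fell with siINO80#1, siINO80#2 and siMCRS1 in EPZ-6438 (-0.33 at an adjusted p of 0.0084, -0.55 at an adjusted p of 0.00023 and -0.47 at an adjusted p of 0.031) and did not pass in DMSO (-0.34 at an adjusted p of 0.1). The alpha-crystallins, small heat shock proteins without the HSPB symbol, gave 0 higher and 0 lower, 1 higher and 1 lower, 0 higher and 1 lower and 0 higher and 1 lower. CRYAB was higher with siINO80#2 (1.62 at an adjusted p of 0.0015).

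Set against the promoter letters shown above, members with the 2-unit heat shock element gave 5 higher and 2 lower calls of 19 with siINO80#1 and 6 and 4 with siINO80#2, and members with a window but no such letters 11 and 9 of 45 and 9 and 15. With siMCRS1 the counts were 7 and 1 of 20 in DMSO and 12 and 1 in EPZ-6438 with the letters, and 16 and 6 of 44 and 20 and 5 without them. The 5 tested members with the 3-unit letters gave 1, 2, 2 and 4 higher calls in the same order, and 0 lower in each. The 59 with a window but no such letters gave 15 higher and 11 lower, 13 and 19, 21 and 7, and 28 and 6. Among all genes tested, 20.7% were higher and 20.8% lower with siINO80#1, and 26.6% and 28.4% with siINO80#2. With siMCRS1 these shares were 23.1% and 24.6% in DMSO and 26.8% and 26.9% in EPZ-6438. HSP90AA1 and HSPA8 both carry 3 or more units, and in limma on the deposited scale without a block the former was called with every siRNA and the latter with none against NTG. HSPA5 and HSP90B1, the members with the stress element, were higher with siMCRS1 on the deposited scale and not called higher with either INO80 siRNA without the block. HSPA5 was called lower with siINO80#2. The DMSO calls of both genes were lost under equal totals and after quantile normalization, and the EPZ-6438 call of HSPA5 was lost under equal totals. These counts are descriptions, and no difference between them was tested.

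No member was called between EPZ-6438 and DMSO. These comparisons share their libraries with those of siMCRS1. In NTG cells 0 of 71 passed in limma, against 0.321% of all genes higher and 0.0629% lower, and in siMCRS1 cells 0 of 71, against 0.0838% and 0.00699%. The edgeR test on recovered reads also called 0 in each. At an unadjusted p under 0.05 there were 16 members in NTG and 6 in siMCRS1 cells, beside 17.1% and 9.12% of all genes. The lowest adjusted p of a member was 0.086 and 0.23. The 95% interval of the difference lay within 1 on the log2 scale, in either direction, for 64 of 71 members in NTG and 67 in siMCRS1 cells, so for those members a change beyond 2-fold lay outside the interval. In NTG cells the extremes were HSPH1 at -0.46 (95% interval -0.72 to -0.19, adjusted p = 0.11) and DNAJC6 at 0.96 (95% interval 0.45 to 1.46, adjusted p = 0.093). In siMCRS1 cells they were DNAJC28 at -0.36 (95% interval -0.90 to 0.17, adjusted p = 0.75) and HSPB1 at 0.91 (95% interval 0.40 to 1.42, adjusted p = 0.23). Every EPZ-6438 library of HSPB1 was above the DMSO libraries given the same siRNA.

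The difference between the effect of siMCRS1 in EPZ-6438 and its effect in DMSO was tested as an interaction. Of 71 members, 0 passed in limma (background 0% higher and 0% lower) and 0 in edgeR, and 0 had an unadjusted p under 0.05, beside 2.35% of all genes. No member was thus shown to respond to siMCRS1 differently in the 2 treatments, although more members were called in EPZ-6438 than in DMSO. The interval was within 1 on the log2 scale for 64 members, and the extremes were DNAJB5 at -0.59 (95% interval -1.23 to 0.05, adjusted p = 1) and HSPA2 at 0.35 (95% interval -0.79 to 1.49, adjusted p = 1). For HSPA5 the interaction was 0.12 (95% interval -0.31 to 0.55, adjusted p = 1), for HSP90AA1 0.33 (95% interval -0.14 to 0.79, adjusted p = 1) and for HSPB8 0.17 (95% interval -0.48 to 0.81, adjusted p = 1).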

How the data were processed

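RNA-seq of HepG2 cells was analysed in 9 libraries of the INO80 experiment and 10 of the EPZ-6438 experiment. The authors deposited size-factor normalized counts, a signal in which reads are divided by 1 factor per library, and their processing notes name kallisto, DESeq2 and GRCh38. Versions, annotation and strand of counting are not given in the sources used here. Values are whole multiples of 1 step per library (100% within 0.001), from which reads were recovered. Normalized library totals ran from 18837100 to 22094300 for INO80 siRNAs and NTG, then 31332600 to 40178000 for the other libraries, and the precision of low genes is limited by counting.

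Groups follow the sample labels. Columns of the EPZ-6438 table were matched to groups, not to single samples. Each table was fitted with limma 3.58.1 in R 4.3.3 (lmFit, eBayes with trend, log2 of the value plus 1, all groups in 1 fit, genes with a mean of at least 10), and p-values were adjusted by Benjamini-Hochberg over 14034 and 14312 genes. The fit was run on simulated counts for siINO80#1 against NTG and for siMCRS1 against NTG in DMSO, with the same dispersion for every gene. That check does not cover an outlying library or a shift in scaling. Alternatives were other pseudocounts, filters and scalings, a fit of the compared groups alone, eBayes without trend, edgeR 4.0.16 with TMM on recovered reads, a replicate block and leaving out each library. Replicate letters were checked as pairs by the correlation of deviations from the group means over genes: in all 3 same-letter pairs of NTG and siINO80#1 it exceeded 0.1 (0.135 to 0.263), so the blocked fit is given beside that comparison, and the pairing comes from the data, not from the labels. Levels per kilobase used GENCODE canonical transcript lengths (80 members).

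The members and gene lists were chosen with earlier results of these data known. Values in every library are given for 19 genes that anchor the roles and for up to 5 members with the largest change in each direction per comparison, among called members averaging 50 or more normalized counts, in the experiment of that comparison. A few other members are named by their roles.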

Additional observations from a re-analysis of the deposited data

How the results depend on the processing

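The number of called members stayed within 1.5 times its value under each alternative, except that the 16 members called between siINO80#2 and siINO80#1 numbered 9 to 18 when 1 library was left out (10, 9 and 10 without siINO80#1 A, B and C). A similar number did not mean the same members. Of the 34 siMCRS1 calls in DMSO, 16 were kept under equal totals and 19 after quantile normalization. Of the 41 in EPZ-6438, 26 and 24 were kept. Leaving out 1 library gave 24 to 36 with siINO80#1, 32 to 38 with siINO80#2, 23 to 37 in DMSO and 30 to 44 in EPZ-6438 after siMCRS1, against 31, 39, 34 and 41, and 0 in the 3 comparisons of EPZ-6438. Values were recomputed, in each comparison, for the genes that anchor the roles and the members called there on the deposited scale. Among those of them called in either fit, 4 reversed their direction, all under quantile normalization. They were DNAJC10 at -0.016 and HSPA9 at -0.33 in DMSO and CCT7 at -0.012 and HSPA4 at -0.12 in EPZ-6438, all with siMCRS1. CCT6A and HSPA4 in DMSO, above 0 on the deposited scale and called lower after quantile normalization, are outside this count. The cause was not tested. Of 5141 recomputed values of named members, 4719 kept direction and side of the threshold, 282 were no longer called, 48 became called, and 88 were not called in either fit and changed sign, in 50 combinations of member and comparison.

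Letters A, B and C of the INO80 experiment paired NTG with siINO80#1 but not the other groups: 2 of 3 same-letter pairs of the siRNAs and 0 of 3 of NTG with siINO80#2 correlated above 0.1 in their deviations from the group means, and 3 of 9 libraries were closest to their own letter. With the replicate block in the fit of 9 libraries, 36, 45 and 19 members were called with siINO80#1, with siINO80#2 and between them, and all of the 31, 39 and 16 were kept. The replicate block in NTG and siINO80#1 alone, chosen after seeing the data, called 44 and kept all of the 31. No paired fit was made for the EPZ-6438 experiment because its columns do not carry the letters of the labels in every group. Groups of 2 or 3 libraries, 1 line and 1 siRNA against MCRS1 limit all calls, and a group left with 1 library was assumed to vary like the others.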
